A study of Drosophila melanogaster with 2 samples.

Results

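The cuticle protein genes of Drosophila melanogaster are examined here for binding by D1. They were chosen by symbol: protein-coding genes of the dm6 annotation whose symbol begins with Cpr and a digit, Twdl, Ccp84, Lcp, Pcp, Edg or Acp65. There were 122 such genes among 13968 protein-coding genes: 70 Cpr, 25 Twdl, 15 Lcp, 7 Ccp84 and 3 Edg genes, with Pcp and Acp65Aa alone in their classes. On the chromosomes, 47 lay on 3L, 33 on 3R, 27 on 2R, 8 on X and 7 on 2L. D1-eGFP binding was mapped by ChIP-seq with an anti-GFP antibody in whole pupae of 24 hours, from a transgenic line that stably carries D1 with a C-terminal GFP tag. The 1 group held 2 biological replicates, with no second genotype, stage or treatment, and the sex of the animals was not collected. Whole animals mix all cell types, so a peak list averages over the epidermis that makes cuticle and every other tissue.

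Cuticle is a layered extracellular matrix of chitin fibres and proteins secreted by the epidermis, and it is rebuilt at each moult and at metamorphosis under the control of ecdysone. Most of its structural proteins belong to the CPR family, which binds chitin through the Rebers-Riddiford consensus, while the Tweedle proteins (Twdl) form a separate family known for their effect on body shape. Many of these genes are short, lie in tandem clusters and are each used at particular stages. D1 is a chromosomal protein whose AT hooks fit into the minor groove of runs of A and T. It has been studied mainly at satellite repeats.

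Of the 122 genes, 20 (16.4%) had a summit of the pooled list within 500 bp of a start, against 26.6% of all protein-coding genes. In the IDR set, the authors' selection of reproducible peaks, 2 genes (1.64%) had a summit there, against 8.45% of all protein-coding genes. Replicate 1 gave 22 genes (18.0%) against 28.7%, and replicate 2 gave 18 genes (14.8%) against 27.5%. The 2 replicates thus averaged 16.4% ± 2.32 for cuticle protein genes and 28.1% ± 0.85 for all protein-coding genes (SD, n = 2 each). Both shares come from the same 2 lists. The SD shows how far the lists differ, and not how uncertain a share of 122 genes is. Both replicates placed a summit within 500 bp of a start at 10 cuticle protein genes (8.20%), against 22.1% of protein-coding genes.

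Counting also summits inside the gene gave 26 cuticle protein genes (21.3%) in the pooled list against 32.2%, and again 2 genes in the IDR set against 12.2%. By the same count replicate 1 gave 33 genes (27.0%) against 35.1%, and replicate 2 gave 25 genes (20.5%) against 33.2%. In none of the pooled and replicate lists did 79 of the 122 genes (64.8%) have a summit, against 59.8% of protein-coding genes. Gene size moves with these counts: the median length was 954.5 bp for cuticle protein genes and 2164.5 bp for all protein-coding genes. Of the 99 cuticle protein genes with 1 start and a length of 2000 bp or less, 11 (11.1%) had a pooled summit near the start, against 15.1% of the 5805 protein-coding genes of that kind. In the IDR set these shares were 2.02% and 3.76%. Near starts the short genes gave 15.2% against 16.8% in replicate 1 and 12.1% against 15.5% in replicate 2. With the gene counted, replicate 1 turned the order round, at 21.2% against 18.9%, while replicate 2 gave 16.2% against 17.4%. The gap to the background was therefore smaller among short genes and not of 1 direction in every list, and its size there rests on few genes. No test was made, because the design has 1 group and neighbouring genes share peaks.

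**Figure D1:**
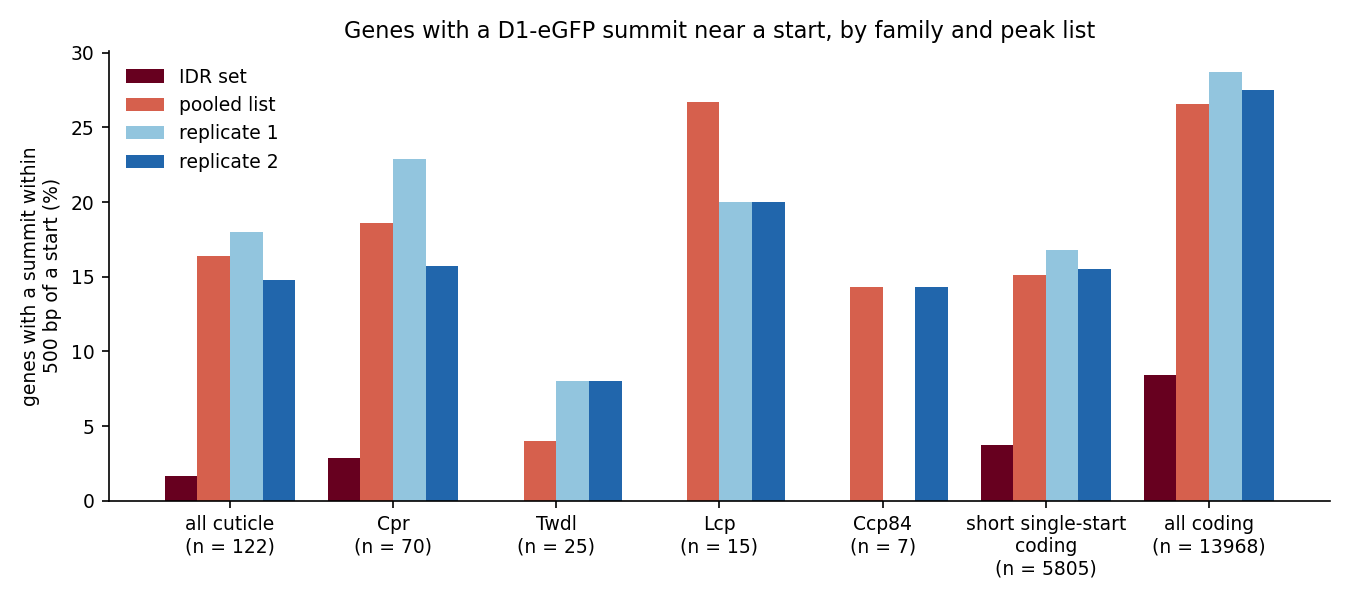
Share of genes (%) with a D1-eGFP summit within 500 bp of a start, for all cuticle protein genes and the 4 families with 7 or more genes, with short single-start and all protein-coding genes at the right. Bars stand for the 4 peak lists. The share of all cuticle protein genes was 16.4% in the pooled list, against 26.6% of all coding genes, and the Twdl bar was the lowest of the families in that list.

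The 2 genes with IDR summits, Cpr72Ea and Cpr72Eb, are neighbours in a cluster of 3 CPR genes on 3L. Cpr72Ea lies at chr3L:16362603-16363750 and Cpr72Eb at chr3L:16364899-16365707, both on the plus strand. The summit 250 bp upstream of Cpr72Ea had a pooled signal of 198, at rank 1757 of 30000 peaks, with 103 in replicate 1 and 94.6 in replicate 2. The summit 371 bp upstream of Cpr72Eb had a pooled signal of 150, at rank 3047, with 82.8 in replicate 1 and 89.1 in replicate 2. Signals are the authors' values and are ranked only within a list, because no source used here gives a scale shared by the lists. Both replicates thus held a summit at both genes, within 13 bp of the pooled one. The third gene, Cpr72Ec, had no summit in any list within 500 bp of its start, and the nearest pooled summit lay 2812 bp away.

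The highest peak in any of the cuticle gene clusters fell just outside the 500 bp window. It lay 573 bp upstream of Cpr72Eb, between that gene and Cpr72Ea, with a pooled signal of 325 at rank 502, 126 in replicate 1 (rank 945) and 199 in replicate 2 (rank 300). It overlaps the lower peak at 371 bp, which is just inside the window. Cpr72Eb is thus counted through the lower of a pair of overlapping peaks.

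The DNA at these summits is shown because the neighbours differ in base composition although all are in the IDR set. Each stretch is 150 bp of the reference centred on the summit, read 5' to 3' on the strand of the named gene, with the satellite-type word AATAT on either strand in capitals. The peaks are those of Cpr72Ea (chr3L:16362278-16362427, plus strand), the one 573 bp upstream of Cpr72Eb (chr3L:16364251-16364400, plus strand) and the one 371 bp upstream (chr3L:16364453-16364602, plus strand).
Cpr72Ea peak: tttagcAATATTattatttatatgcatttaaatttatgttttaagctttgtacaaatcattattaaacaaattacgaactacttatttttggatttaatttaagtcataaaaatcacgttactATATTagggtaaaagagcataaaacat
Cpr72Eb outer peak: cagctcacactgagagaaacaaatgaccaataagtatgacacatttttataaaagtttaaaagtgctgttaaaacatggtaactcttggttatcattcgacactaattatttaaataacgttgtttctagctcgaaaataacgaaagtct
Cpr72Eb inner peak: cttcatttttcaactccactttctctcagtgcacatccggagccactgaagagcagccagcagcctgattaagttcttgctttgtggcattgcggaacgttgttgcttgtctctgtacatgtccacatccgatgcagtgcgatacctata
The Cpr72Ea stretch was 80.0% A + T with 3 AATAT matches, a pair of them overlapping, and a longest uninterrupted A/T run of 17 bases. The outer Cpr72Eb stretch was 69.3% A + T, with a longest A/T run of 15 bases and no AATAT. The inner stretch was 52.0% A + T, with no AATAT and no A/T run longer than 6 bases.

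Among the other CPR genes, Cpr62Ba carried the highest peak near a start, 287 bp upstream, with a pooled signal of 112 at rank 5366 (55.6 in replicate 1, 47.4 in replicate 2). It was the gene with most pooled summits, 3 near its 2 starts and 1 more in an intron. Cpr51A had a summit 129 bp downstream of its start with a pooled signal of 89.6, and both replicates held it, at 34.2 and 51.6. Cpr78Cb had one 449 bp upstream with a pooled signal of 84.5, with 35.7 in replicate 1 and 55.8 in replicate 2. Further down the list, with pooled signals of 42.6 to 58.3, came Cpr47Ed, Cpr92F, Cpr97Ea, Cpr76Ba, Cpr65Ea, Cpr67Fa2, Cpr50Ca and Cpr35B. Of these 8 genes, Cpr92F alone had a summit of each replicate within 100 bp of the pooled one.

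The highest pooled peak inside any of the genes, rather than near a start, was in an intron of Cpr73D, an unusually long CPR gene of 18590 bp. Its pooled signal was 121 at rank 4552, with 66.3 in replicate 1 and no summit of replicate 2 within 100 bp. The summit lay 229 bp from a start of Ogdh, which encodes a subunit of the 2-oxoglutarate dehydrogenase of the mitochondria and overlaps Cpr73D. A second Cpr73D intron peak, with a pooled signal of 107, lay 786 bp from an Ogdh start and was found in both replicates (49.5 and 69.8). No start of Cpr73D had a summit within 500 bp in any list. Of the 33 distinct pooled peaks at cuticle protein genes, 3 had the start of a gene of another kind as the nearest, these 2 and 1 in Cpr51A near CG30197, and which gene such a peak belongs to cannot be told apart from position. The stretch at the higher Cpr73D peak is printed as the most A/T-rich of those shown, at 80.7% (chr3L:16955196-16955345, minus strand, AATAT in capitals).
Cpr73D peak: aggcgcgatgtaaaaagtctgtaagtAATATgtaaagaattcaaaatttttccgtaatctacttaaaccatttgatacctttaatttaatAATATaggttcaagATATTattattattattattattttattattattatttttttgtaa
It holds 3 AATAT matches and an uninterrupted A/T run of 42 bases.

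Among the larval cuticle protein genes, 4 of 15 Lcp genes (26.7%) had a pooled summit near a start, a share close to the 26.6% of all protein-coding genes. The Lcp genes are short, with a median length of 578 bp, and the share of short single-start protein-coding genes was 15.1%. Lcp2 and Lcp3, neighbours on 2R that point away from each other, shared 1 summit 351 bp upstream of Lcp2 and 174 bp upstream of Lcp3. Its pooled signal was 69.9, replicate 1 held it at 41.5, and the nearest replicate 2 summit was 21692 bp away. Lcp65Ad had a summit 383 bp inside the gene's start with a pooled signal of 66.8 and 21.2 and 41.5 in the replicates. Lcp65Ag3 had one 373 bp upstream with a pooled signal of 48.9, found in replicate 2 alone, at 33.5. None of the Lcp genes was in the IDR set.

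Of the 7 Ccp84 genes, which form a cluster on 3R, Ccp84Af alone had a pooled summit, 317 bp downstream of its start. Its pooled signal was 52.5, with 32.3 in replicate 2 and no summit in replicate 1. Edg84A, an ecdysone-dependent gene at the edge of the same cluster, had a higher peak 400 bp upstream. Its pooled signal was 108 at rank 5692, with 38.0 in replicate 1 and 71.5 in replicate 2. A still higher summit lay farther upstream of Edg84A, just outside the 500 bp window. That summit had rank 868 in the pooled list, within the IDR set, with rank 1585 in replicate 1 and rank 571 in replicate 2. Edg84A is thus counted through the lower of these peaks and not as a gene with an IDR summit. Edg78E held a pooled summit 953 bp into the gene, with a signal of 47.6, and Edg91 held none, with the nearest at 707 bp. The pupal cuticle gene Pcp and the adult cuticle gene Acp65Aa also had none, and their nearest pooled summits lay at 845 bp and 912 bp.

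The lower Edg84A peak, 400 bp upstream (chr3R:6683970-6684119, plus strand), is set beside stretches from 3 genes with no summit within 500 bp of a start. These are the 150 bp upstream of Cpr72Ec (chr3L:16367341-16367490, minus strand), TwdlM (chr3R:26618968-26619117, plus strand) and Acp65Aa (chr3L:6152746-6152895, minus strand), which lie closer to their starts. Capitals mark AATAT in the first and the TATA-box word TATAAA in the other stretches, on either strand. They do not mark every match of the 2 words. The Edg84A stretch also holds TATAAA 3 times, and the TwdlM stretch also holds AATAT 2 times.
Edg84A peak: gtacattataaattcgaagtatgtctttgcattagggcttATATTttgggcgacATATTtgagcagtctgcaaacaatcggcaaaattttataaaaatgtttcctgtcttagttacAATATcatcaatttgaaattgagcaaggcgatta
Cpr72Ec upstream: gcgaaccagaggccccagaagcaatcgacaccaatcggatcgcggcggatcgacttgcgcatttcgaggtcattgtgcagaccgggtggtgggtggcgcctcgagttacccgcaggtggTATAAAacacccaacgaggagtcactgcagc
TwdlM upstream: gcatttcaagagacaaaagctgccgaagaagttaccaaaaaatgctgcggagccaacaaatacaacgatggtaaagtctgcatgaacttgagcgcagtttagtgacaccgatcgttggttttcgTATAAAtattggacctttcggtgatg
Acp65Aa upstream: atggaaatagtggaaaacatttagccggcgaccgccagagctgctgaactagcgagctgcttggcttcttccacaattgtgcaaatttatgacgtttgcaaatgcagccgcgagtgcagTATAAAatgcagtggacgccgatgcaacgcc
The Edg84A stretch was 68.0% A + T, while the 300 bp promoter of Edg84A itself was 50.7%, against 45.3%, 56.7% and 53.3% for the promoters of Cpr72Ec, TwdlM and Acp65Aa. The upstream stretches were 40% A + T at Cpr72Ec, 57.3% at TwdlM and 50% at Acp65Aa, and each holds TATAAA once, near its right end.

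In the pooled list the Twdl genes had the lowest share of genes with a summit among the 4 families of 7 or more. TwdlE, on 2L, was the only one of 25 (4%) with a pooled summit near a start. It had 2, at 86 bp downstream and 136 bp upstream, with pooled signals of 60.2 and 55.6. Replicate 2 held the first at 43.2, and replicate 1 held neither within 100 bp. The replicates had 2 Twdl genes each with a summit near a start, and no Twdl gene was in both.

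A cluster of 12 Twdl genes on 3R, from TwdlM to TwdlD, had no summit in the pooled, IDR or replicate lists over 22.9 kb. TwdlD is the gene in which the Tweedle body-shape mutation was found. The nearest pooled summits lay 68968 bp to the left and 153759 bp to the right. The cluster and TwdlQ stood in a stretch of 245 kb with no pooled summit (chr3R:26550150-26794813), the 18th longest of 29994 stretches between neighbouring pooled summits. These 13 Twdl genes made up 13 of its 25 protein-coding genes. Replicate 1 had 10 summits in the stretch, 1 of them between TwdlM and TwdlQ, and replicate 2 had 3, none of them there. The highest had a signal of 33.1 (rank 13660) in replicate 1 and 34.8 (rank 17972) in replicate 2. The words of this cluster's promoters were single-copy in the genome throughout (100% of 31-base words). Inside the genes less than 90% of the words were single-copy in 6 of the 12, with 58.4% in TwdlL, 67.5% in TwdlB and 70% in TwdlK. TwdlO (98.3%) and TwdlH (97.1%) were also below 100%. The part of repeated sequence in the lack of summits there was not tested. The median distance to the nearest pooled summit was 68968 bp for Twdl genes and 1722.5 bp for Cpr genes, against 4486 bp for all protein-coding genes. The Twdl median is the distance of TwdlM, because 13 of the 25 Twdl genes stood in this stretch. The Twdl genes elsewhere lay from 86 bp (TwdlE) to 23311 bp (Twdlbeta) from a pooled summit. Most of those were nearer than 4486 bp, and TwdlC, TwdlX, TwdlW and Twdlbeta were farther.

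Stretches of 50 kb or more without a pooled summit held 26 of the 122 genes (21.3%), against 29.0% of protein-coding genes. The share was thus lower for cuticle protein genes as a whole, and 13 of those 26 genes stood in the Twdl stretch. The longest such stretch with cuticle genes, 388 kb on 2R and the 8th longest of all, held Cpr60D and Lcp9 among 71 protein-coding genes. Lcp9 was the gene farthest from a pooled summit, at 162151 bp.

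Although few starts had summits, the clusters themselves were not poor in them. Runs of 3 or more genes with gaps of 20 kb or less gave 15 clusters with 88 of the genes over 258 kb. They held 55 pooled summits, or 21.3 per 100 kb, the same as the 21.3 per 100 kb over the rest of the same chromosomes. The density was 23.2 per 100 kb in replicate 1 and 19.0 in replicate 2 (21.1 ± 2.97, SD, n = 2), against 21.3 and 21.5 outside the clusters. IDR summits were fewer, 4 in all or 1.55 per 100 kb, against 2.45. These 4 were the 3 summits of the Cpr72E cluster and 1 in the Cpr65E cluster. The count leaves out summits of the IDR set that lay just beyond the 500 bp added at each cluster end. Among those were summits of pooled rank 230 beside Cpr72E, 868 beside Edg84A, 1399 beside Cpr76B and 2719 beside 65A. How far the lower IDR density depends on the added length was not tested.

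The clusters differed widely among themselves. Pooled summits reached 70.1 per 100 kb in the Cpr67F cluster, 56.6 in Cpr65E, 52.3 in Cpr72E, 40.4 in the 18-gene 65A cluster, 38.8 in Cpr78C with Edg78E and 31.7 in Cpr62B. The other 9 clusters had 18.6 or less, with none in the Cpr64A and the TwdlM to TwdlD clusters. The 100 kb on each side differed as well: 65A stood in a region of 13.0 summits per 100 kb and Cpr67F in one of 73.0. Over the 15 clusters, 7 had fewer summits per length than their flanks. Among those were the TwdlF to TwdlV cluster, at 10.2 against 42.0, and the TwdlX to Twdlalpha cluster, at 14 against 37.5.

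Inside the clusters most summits lay between the cuticle protein genes. These parts are not free of other genes. The clusters held 13 other protein-coding genes, 3 of them with a pooled summit near a start. Some of the pooled summits counted there lay inside other genes, such as Or47a, CG30050 and goe. The parts more than 500 bp from a cuticle gene start and outside the cuticle genes made up 41.4% of cluster length. They held 34 of the 55 pooled summits (61.8%), or 31.8 per 100 kb. The windows within 500 bp of a cuticle gene start made up 35.3% of the length and held 15 summits (27.3%), or 16.4 per 100 kb. The rest of the cuticle genes had 9.98 per 100 kb. In replicate 1 the same 3 densities were 33.7, 16.4 and 15 per 100 kb, and in replicate 2 they were 23.4, 16.4 and 15. The parts between cuticle genes had the highest density in both replicates. Base composition moved with it: the parts between cuticle genes were 61.2% A + T, the windows around starts 53.7% and the rest of the cuticle genes 53.0%. Its part in the placing of summits was not tested.

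The 65A cluster, which joins larval, adult and other CPR genes over 32.2 kb, shows this most fully. Only 2 of its 13 pooled summits lay within 500 bp of one of its starts. The highest had a pooled signal of 134 at rank 3752 and lay between Acp65Aa and the last genes of the cluster, 884 bp from the non-coding gene lncRNA:CR45421, with 37.4 in replicate 1 and 90 in replicate 2. The next, with a pooled signal of 110, lay 1060 bp from the start of Lcp65Ag3, with 69.8 and 68.6 in the replicates. In the Cpr65E cluster the IDR summit lay 2173 bp from Cpr65Eb, between that gene and Cpr65Ec. Its pooled signal was 167 at rank 2440, with 79.9 in replicate 1 and 86.6 in replicate 2. The 150 bp at this summit were 70% A + T (chr3L:7090885-7091034, minus strand, AATAT in capitals).
Cpr65E peak: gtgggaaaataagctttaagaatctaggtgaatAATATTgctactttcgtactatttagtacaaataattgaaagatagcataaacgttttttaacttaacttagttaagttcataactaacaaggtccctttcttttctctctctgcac

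The placement around starts showed the same difference. In the 500 bp upstream of the most upstream start, cuticle protein genes had 12 pooled summits, or 19.7 per 100 kb, against 41.9 for all protein-coding genes and 27.8 for short single-start ones. The replicates gave 27.9 and 16.4 for cuticle protein genes, against 45.7 and 42.3 for all protein-coding genes. From 500 to 3000 bp upstream the pooled order was turned round: the cuticle protein genes had 23.0 to 36.1 summits per 100 kb in 500 bp bins, against 18.0 to 20.4 for all protein-coding genes. In each replicate as well, each of these 5 bins was higher for cuticle protein genes. In the first 500 bp downstream they had 10 summits, or 16.4 per 100 kb, against 21.3 for all and 7.41 for short protein-coding genes. There the replicates differed, with 8.2 in replicate 1, against 21.0 for all and 8.03 for short protein-coding genes, and 16.4 in replicate 2, against 23.2 and 9.54. Neighbouring cuticle genes share summits, so the bins of 8 to 22 summits are not independent.

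Shares of genes by distance from the most upstream start to the nearest pooled summit crossed those of all protein-coding genes, but at the distances counted from 500 bp to 20 kb they stayed above those of short ones. Within 500 bp lay 16.4% of cuticle protein genes, against 24.2% of all and 15.1% of short protein-coding genes. These cuticle shares cover all 122 genes, of any length. Of the 99 with 1 start and a length of 2000 bp or less, 11.1% lay within 500 bp, a lower share than the 15.1%. Their median distance was 2519 bp, against 5479 bp for short protein-coding genes. Within 1000 bp the shares were 30.3%, against 30.9% of all and 21.7% of short ones. Within 5000 bp lay 70.5% of cuticle protein genes, against 51.7% of all and 47.8% of short protein-coding genes. Beyond 50 kb the Twdl genes on 3R turned the order again, with 87.7% of cuticle protein genes within that distance, against 95.3% of all and 93.9% of short protein-coding genes.

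**Figure D2:**
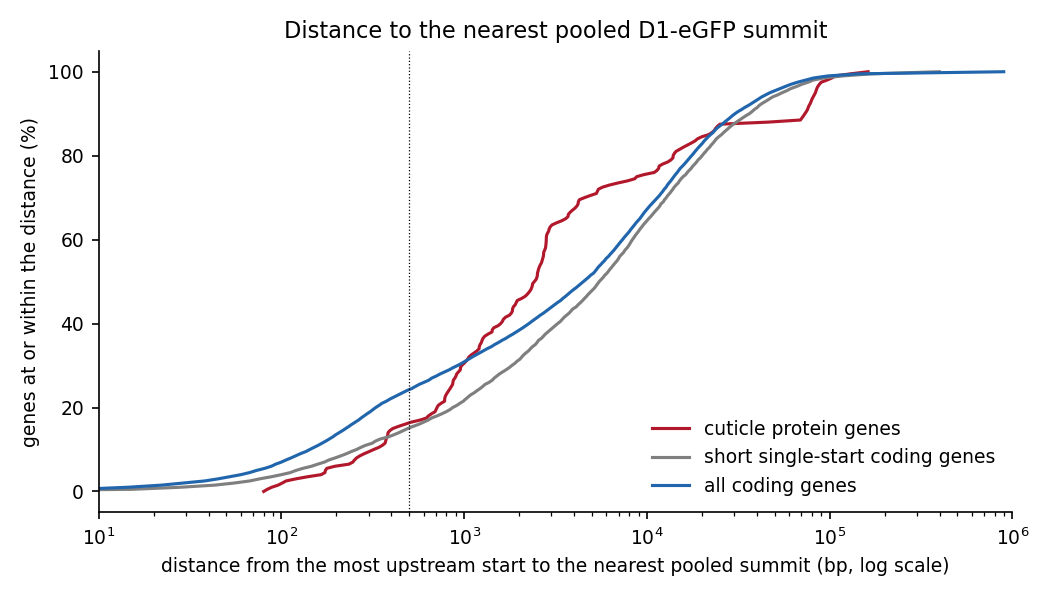
Cumulative share of genes (%) by distance (bp, log scale) from the most upstream start to the nearest pooled summit, for all 122 cuticle protein genes of any length, short single-start and all protein-coding genes. The dotted line marks 500 bp; the cuticle curve lies below that of all coding genes there (16.4% against 24.2%) and above it at 5000 bp (70.5% against 51.7%).

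The promoters of cuticle protein genes were poorer in A and T than most. From 250 bp upstream to 50 bp downstream of the start they averaged 55.7% ± 5.85 A + T (SD over 122 genes), against 60.9% ± 7.74 for all and 62.4% ± 6.81 for short protein-coding genes. The Lcp promoters were the richest of the families, at 60.8%, and the Ccp84 promoters the poorest, at 52.7%. Cuticle protein genes with a pooled summit near a start averaged 57.7% ± 5.65 (n = 20) and those without one 55.3% ± 5.84 (n = 102), with ranges that overlap. Over all protein-coding genes the means were 60.7% with a summit and 61.0% without one. Over short protein-coding genes they were 64.3% ± 6.41 and 62.1% ± 6.83, in the same order as for cuticle protein genes. The profile along the DNA had another shape: A + T was highest 450 bp upstream for cuticle protein genes, at 63.1%, against 59.0% there for all protein-coding genes. At 150 bp upstream, where all protein-coding genes peaked at 64.4%, cuticle protein genes had 56.5%. At 350 bp downstream they had 47.0%, against 52.5%. The part of promoter A + T content in the low count of summits near starts was not tested.

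**Figure D3:**
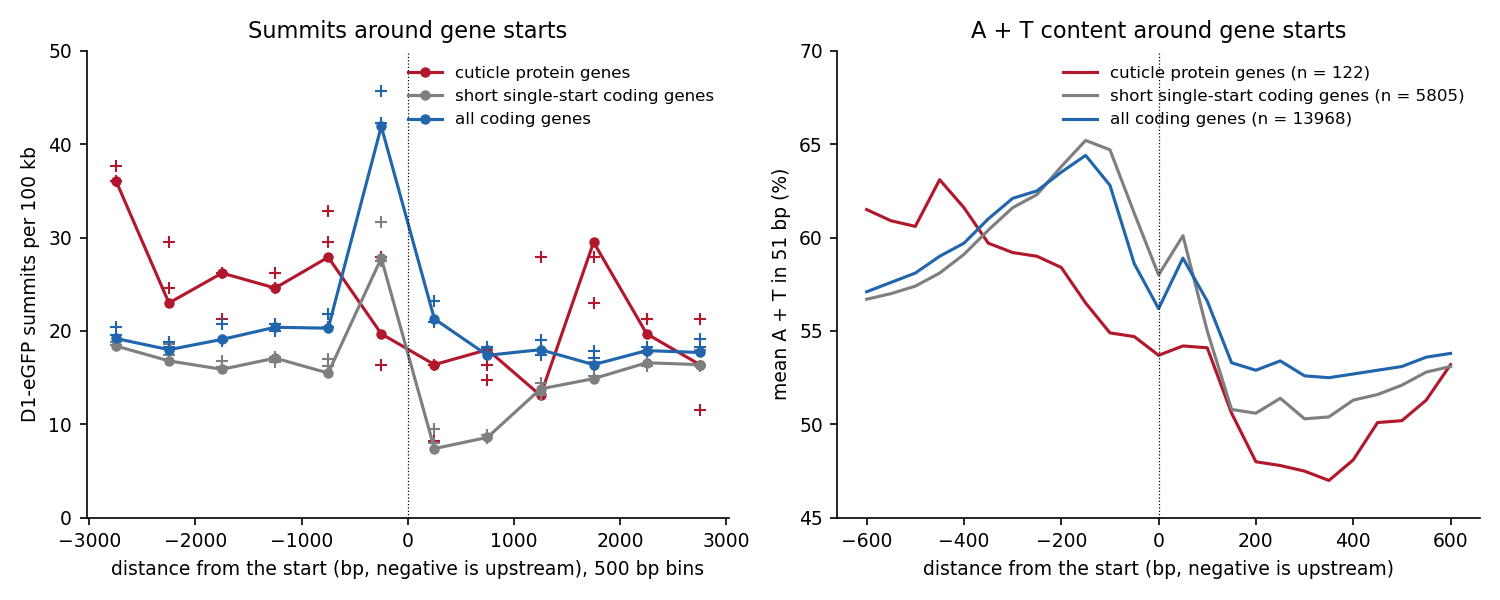
Left, D1-eGFP summits per 100 kb in 500 bp bins around the most upstream start (lines, pooled list; crosses, the 2 replicates). Right, mean A + T (%) in 51 bp windows. Cuticle protein genes had 19.7 pooled summits per 100 kb in the 500 bp upstream against 41.9 for all coding genes, and their A + T was highest 450 bp upstream, not 150 bp upstream.

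The promoters also differed in the words they hold. AATAT, on either strand, was found in 50.8% of cuticle promoters, against 72% of all protein-coding promoters of the same length. TATAAA was found in 75.4% against 45.8%. On the coding strand with its first base 40 to 20 bp before the annotated start, where a TATA box stands, TATAAA was found at 70 of the 122 genes (57.4%), against 7.78% of all and 12.7% of short protein-coding genes. By family it was 11 of 15 Lcp genes, 15 of 25 Twdl genes and 34 of 70 Cpr genes. AAAAAAAA was found in 17.2% against 15.9%, ATATATAT in 3.28% against 6.02%, and GAGAG in 30.3% against 29.7%. Apart from the count by position, words were searched on both strands. Matches of AATAT, ATATATAT and TATAAA can overlap one another, and a match is not a bound site.

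The peaks at cuticle protein genes were mostly low in the list. The 33 distinct pooled peaks in or near these genes had a median signal of 58.3, between 42.6 and 198, and 19 lay below the median of the whole pooled list, 64.1. Taking each gene's highest pooled peak near a start, the median rank was 17223.5 for cuticle protein genes, against 6641 for protein-coding genes. Each replicate had a summit within 100 bp at 13 of the 33 peaks, replicate 1 alone at 6, replicate 2 alone at 9 and neither at 5. Of 23 pairs of a cuticle gene and a summit within 500 bp of its start, 56.5% had the summit upstream, against 65.6% for all protein-coding genes. The 200 bp at the 33 peaks were 61.1% ± 9.97 A + T, between 40% and 79.0%, against 62.1% ± 8.13 at all pooled peaks.

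**Figure D4:**
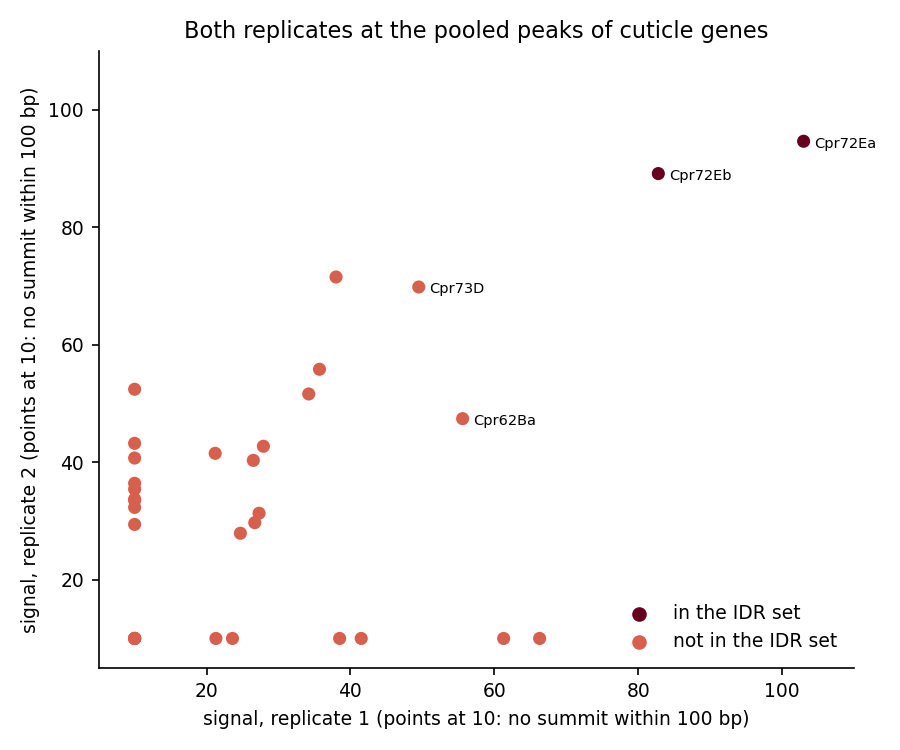
Signal of the replicate summit within 100 bp of each of the 33 pooled peaks at cuticle protein genes, replicate 1 against replicate 2; a point at 10 on an axis has no such summit in that replicate, and points there can hide one another. The peaks of Cpr72Ea and Cpr72Eb stand apart at 82.8 to 103 in replicate 1.

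Summits were found at genes with and without the chitin-binding consensus. A fixed form of the Rebers-Riddiford pattern was found in the translated reading frame of 74 of the 122 genes, in none of the Twdl genes and in 52 of 70 Cpr genes. A pooled summit lay near a start of 10 of the 74 (13.5%) and of 10 of the 48 others (20.8%). Neither Cpr72Ea nor Cpr72Eb held this strict form, and Cpr72Ec did.

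Repeated sequence limits where short reads can be placed, most of all at 4 genes of the 65A cluster. Lcp65Ab1 and Lcp65Ab2, and Cpr65Ax1 and Cpr65Ax2, are near-identical pairs, and no 31-base word of their genes was single-copy. In their promoters 7.78% to 28.9% of the words were. None had a summit near a start in the pooled list, and short reads from such copies could not be placed at 1 of them. In all, 21 of the 122 genes had less than 90% single-copy words inside the gene, among them Lcp65Ag1 (27.7%), Lcp65Ag3 (36.4%), Lcp65Ag2 (36.8%), Ccp84Aa (48.2%), Cpr73D (51.1%) and Ccp84Ab (54.4%). Their counts of summits inside the gene carry the same limit.

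Other genes of the cuticle pathway had a pooled summit near a start more often than the cuticle protein genes did. Of 27 genes for chitin synthesis, turnover and matrix proteins, 10 (37.0%) had a pooled summit near a start, among them the chitin synthase gene kkv (115) and knk (125), needed for chitin organisation. In this list mmy, which makes the activated sugar for chitin, was the only gene with an IDR summit near a start, at 159. Of 18 tanning and pigment genes, 8 (44.4%) had one, among them the tyrosine hydroxylase gene ple (118) and Ddc (103), and 2 had an IDR summit near a start, yellow-c (158) and the laccase gene stw (147). Of 12 regulators of cuticle genes, 11 (91.7%) had one. An IDR summit lay near a start of 4 of them, Eip74EF (217), the ecdysone receptor gene EcR (215), grh (203) and ftz-f1 (151), all with summits in both replicates. With the whole gene counted, 9 of the 12 regulators had an IDR summit. The background was 26.6% of all protein-coding genes with a pooled summit near a start, and 34.9% of those that are longer than 2000 bp or have several starts. For an IDR summit near a start these backgrounds were 8.45% and 11.8%, and the 3 lists had 3.7%, 11.1% and 33.3%. The share of the chitin list thus lay below both. With the whole gene counted, the IDR backgrounds were 12.2% and 18.0%. All numbers in parentheses without a percent sign are pooled signals. These lists differ from the cuticle protein genes in size as well: their median lengths were 3590, 3886 and 37521.5 bp, and how far length accounts for the counts was not tested.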

How the data were processed

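Chromatin of whole D1-eGFP pupae was precipitated with anti-GFP in 2 biological replicates, grouped from the labels. The authors deposited 4 peak lists on dm6: 30000 peaks for each replicate and for the pool, and 3388 in the IDR set, which equalled the highest pooled peaks. Each peak carries the authors' signal and a deposited -log10 q-value, tied at the top of each list, so peaks were ranked by signal. The lowest -log10 q-value was 0.38 in the pooled list and 2.51 in the IDR set, so the pooled list reaches down to weak calls. The aligner, the caller and the scale of the signal were not given in the sources used here, and read depth is unknown, so no interval is given. Per the deposited text notes a control was used.

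Summits (interval start plus offset) were compared with Ensembl release 115 starts and genes on 7 chromosomes, in Python 3.11.15 with pandas 2.3.3. A start window was 500 bp. Clusters were runs of 3 or more genes at most 20 kb apart, with 500 bp added at each end. Promoters ran from 250 bp upstream to 50 bp downstream on the NCBI Release 6 sequence. Sequences shown come from that assembly. Single-copy words were 31 bases found once over all sequences of that assembly, on either strand. Counting was tested on simulated data.

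The genes, lists and tests were chosen with earlier results of these data known. Named genes were those with IDR summits, the 15 highest near starts, the highest of each cluster, Edg78E, Edg84A, Edg91, Pcp, Acp65Aa and the least single-copy. Cpr72Ec, TwdlM, the peaks between cluster genes, the stretches without summits and the position of TATAAA were chosen after values were seen. Alternatives were windows of 250 and 1000 bp, midpoints, interval overlap, isolated genes, higher signals, single replicates, other cluster joins, other promoter windows and, added after seeing the data, short genes. AANAT1 was not matched. Cuticle genes on 2R are described without sequence.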

Additional observations from a re-analysis of the deposited data

How the results depend on the processing

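Widening the start window to 1000 bp gave 30.3% of cuticle protein genes with a pooled summit near a start (32.5% of all protein-coding genes), 32.0% with the gene included and 16.4% with both replicates. Narrowing it to 250 bp gave 9.02% in the pooled list, 3.28% with both replicates and 0.82% in the IDR set, with or without the gene. The higher 15000 peaks of each list gave 7.38%, 9.84% with the gene and 4.92% with both replicates, and the higher 1694 peaks of the IDR set gave 0. As many peaks of each list as the IDR set holds gave 1.64% by all 3 of these counts. Any overlap of an IDR interval with the gene or window gave 3.28%, and short single-start genes gave 14.1% in the pooled list with the gene. In each of these settings the share of all protein-coding genes was higher. Leaving out 1 replicate gave 14.8% to 18.0% near starts, 20.5% to 27.0% with the gene, 1.64% to 2.46% for as many peaks with the gene, and 19.0 to 23.2 summits per 100 kb of cluster. With these, 35 alternative values stayed within 1.5 times the reported value, or within the SD for A + T and for summit density. No paired analysis was possible because there is 1 group. Read depth, the signal's scale and the mixture of tissues in whole pupae limit what an absent summit shows.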
